A study of Homo sapiens with 8 samples.

Results

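Complement is a plasma defence cascade, and 9 genes of it are described here: the membrane shields CD55, CD46 and CD59, the component C3, factor B (CFB), the C1 proteases C1R and C1S, the C1 inhibitor SERPING1 and factor I (CFI). The genes were chosen by symbol with their measured levels and differences in these libraries already known, so their values are given as a description and carry no test. They make up 9 of the 55679 gene identifiers after repeats were dropped, in 10 entries because CFB has 2 identifiers, and 7 of the 9 averaged 1 CPM or more, where CPM is the count scaled to a common library total.

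Complement tags a surface with C3 fragments through the classical, lectin or alternative route and ends in a pore in the membrane. Cells guard themselves at several steps: CD55 speeds the decay of the enzymes that cleave C3, CD46 is a cofactor for the cleavage of C3b and C4b by factor I, and CD59 blocks the last step of pore assembly. C1R and C1S are the proteases of the first component of the classical route, SERPING1 inactivates them, and factor B supplies the protease of the alternative route. Carcinoma cells carry the shields, while most plasma complement is made in the liver, with further synthesis by macrophages, fibroblasts and other cells.

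RNA-seq was measured in 2 triple-negative breast cancer cell lines, MDA-MB468 and BT549, as 8 libraries with 1 library per condition. Acetalax (oxyphenisatin acetate) is a drug once used as a laxative that the study examined for the swelling form of cell death called oncosis. The 4 backgrounds were MDA-MB468 parental, MDA-MB468 CE, BT549 parental and BT549 CE cells, each without drug (control) and with 1 µM Acetalax for 6 hours. CE stands for chronic exposure: these cells had been grown in rising Acetalax up to 40 µM and were kept free of it for 2 weeks, so a CE control library differs from its parental control by this history and not by drug present. Each CE background is 1 selected population of 1 line, and the labels name no separate cultures.

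The libraries held between 42261122 and 54241728 counts, a 1.28-fold range, and all intervals below are 95% intervals that cover counting error only. A difference between conditions could not be set against culture to culture spread, because no condition had a second library. The libraries kept to their lines. EPCAM was at 409 CPM in MDA-MB468 and 0.189 CPM in BT549 parental control cells, and VIM was at 4.63 and 1327 CPM. Of the markers of a triple-negative tumour, PGR was at most 0.627 CPM and ESR1 at most 5.15 CPM, and ERBB2 was between 41.2 and 95.2 CPM. TRPM4, the ion channel proposed as the target of the drug, had 49.0 CPM in MDA-MB468 and 20.1 CPM in BT549 parental control cells. In CE control cells it had 60.2 and 31.6 CPM. The study reported the CE cells as resistant to Acetalax, with TRPM4 protein barely detectable and its transcript described as unchanged. The markers of cells that make complement elsewhere summed to at most 1.37 CPM for 5 hepatocyte genes. The defining leukocyte genes PTPRC, CD68, LYZ and AIF1 were each below 1 CPM in every library, while CD14 reached 47.2 CPM and CSF1R 17.2 CPM, both in MDA-MB468.

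The shields were the most abundant of the 9 genes in every MDA-MB468 library. Per length of merged exons (FPKM), MDA-MB468 parental control cells had 41.1 for CD59, 24.6 for CD46, 2.70 for CD55 and 2.31 for C3, against 0.583 for SERPING1, 0.346 for C1R and 0.0421 for C1S. BT549 parental control cells had 15.0 for CD59, 10.9 for CD55 and 10.00 for CD46, followed by 5.00 for C1S and 3.20 for C1R. In BT549 CE control cells the order was turned, with C1R at 46.7 and C1S at 36.9 ahead of CD46 at 11.0, CD59 at 9.76, SERPING1 at 3.15 and CD55 at 2.48 FPKM. CD55 therefore made up 3.94% of the summed FPKM of the shields in MDA-MB468 and 30.4% in BT549 parental control cells.

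**Figure D1:**
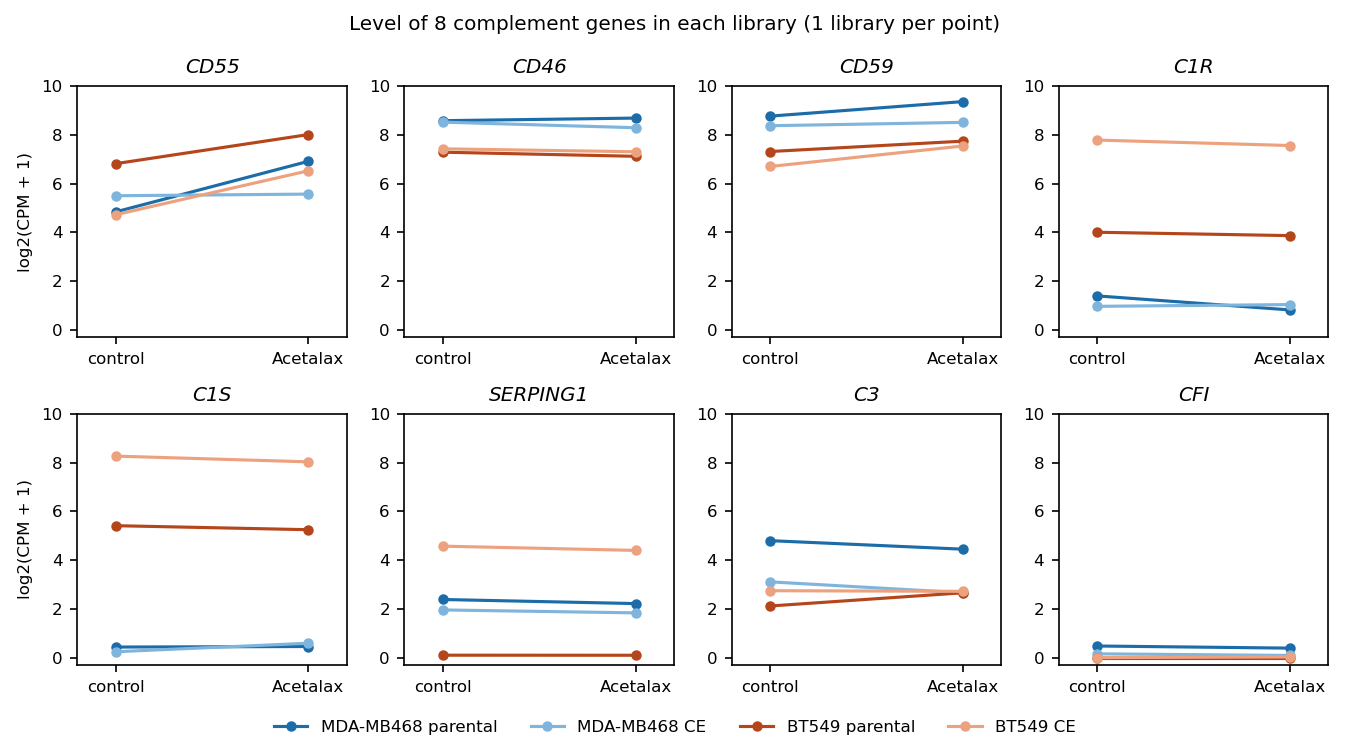
Level of 8 of the 9 genes as log2(CPM + 1) in each library, with control and Acetalax on the horizontal axis and 1 line per background. CD55 is higher with Acetalax in 3 backgrounds and about level in MDA-MB468 CE cells, whereas C1R, C1S and SERPING1 lie highest in both BT549 CE libraries. CFB was listed at 0 in every library and is not drawn.

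CD55 (decay-accelerating factor, chr1:207494853-207534311 of hg19, plus strand) had the largest ratio of Acetalax to control among the shields in every background but MDA-MB468 CE. In MDA-MB468 it had 27.6 CPM in parental control, 119.4 CPM in parental Acetalax, 44.3 CPM in CE control and 46.4 CPM in CE Acetalax cells. In BT549 it had 111.7, 256.6, 25.4 and 91.1 CPM in the same order. The Acetalax library was the higher one in all 4 pairs, by a large step in every background but MDA-MB468 CE.

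The Acetalax library had 4.32 times the control level of CD55 in MDA-MB468 parental cells (interval 4.07 to 4.59). The ratio was 2.30 in BT549 parental cells (2.22 to 2.38) and 3.58 in BT549 CE cells (3.37 to 3.81). In MDA-MB468 CE cells the ratio was 1.05 with an interval of 0.986 to 1.11 by total counts. Its log2 ratio was 0.07 by total counts (−0.02 to 0.16), 0.14 with trimmed mean (TMM) scaling and 0.15 with DESeq2's size factors, so whether so small a difference exceeds counting error depends on the scaling. Ordered by log2 ratio among the 14030 genes that averaged 1 CPM or more, CD55 stood at place 135 from the highest in MDA-MB468 parental, 189 in BT549 parental, 162 in BT549 CE and 4687 in MDA-MB468 CE cells. The difference between the MDA-MB468 backgrounds was not tested, since each ratio rests on 1 pair of libraries.

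CD55 also differed between CE and parental cells, and the sign depended on the line and the drug. Without drug it was 1.60 times as high in CE as in parental MDA-MB468 cells (1.49 to 1.72). In BT549 the parental control library had 4.39 times the CE control level (4.14 to 4.67), and CD55 stood at place 190 from the lowest of 14030. With drug, CE was below parental in both lines, by 2.57-fold in MDA-MB468 (2.45 to 2.70) and 2.82-fold in BT549 (2.72 to 2.92). These contrasts share control libraries with the Acetalax ratios and are not separate evidence. BT549 CE cells with Acetalax, at 91.1 CPM, were still below BT549 parental cells without it.

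A gene was counted as past the fold when its log2 CPM ratio was at least 1 in size, and the share of all 14030 genes past it is the background. In the Acetalax pair of MDA-MB468 parental cells 1 gene of the 7 was past it upwards (CD55) and 1 downwards (C1R), where 5.01% of all genes were higher and 4.48% lower. In BT549 parental cells CD55 alone was past it, with 2.09% higher and 3.24% lower overall. In MDA-MB468 CE cells C1S alone was past it upwards, on 24 against 8 counts, with 2.47% higher and 2.95% lower overall. In BT549 CE cells CD55 alone was past it, with 4.41% higher and 13.6% lower overall. The choice of genes used these contrasts, so nothing is read from the counts.

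The last pair depends on the scaling. The median log2 ratio of all genes in the BT549 CE Acetalax pair was −0.19 by total counts and −0.04 with TMM, and 24.5% of the genes past the fold were higher by total counts, 36.6% with TMM and 40.5% with DESeq2's size factors. In BT549 parental cells the same share was 39.2% by total counts, 50.9% with TMM and 41.4% with size factors. The CD55 log2 ratio of BT549 CE cells was 1.84 by total counts and 2.00 with TMM.

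CD59 (protectin, chr11:33719807-33757991, minus strand) was the second shield with a higher level in each Acetalax library. It had 433.9 CPM in control and 656.1 CPM in Acetalax MDA-MB468 parental cells, and 330.2 and 363.1 CPM in the CE cells of that line. In BT549 it had 158.0 and 212.5 CPM in parental and 103.0 and 185.1 CPM in CE cells. The ratio of Acetalax to control was 1.51 (1.49 to 1.54) in MDA-MB468 parental, 1.10 (1.08 to 1.12) in MDA-MB468 CE, 1.34 (1.30 to 1.39) in BT549 parental and 1.80 (1.74 to 1.86) in BT549 CE cells. None was past 2-fold by total counts, while the BT549 CE log2 ratio was 0.85 by total counts and 1.00 with TMM, just past the fold. As for CD55, the MDA-MB468 CE pair had the smallest ratio of the 4.

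CD59 was lower in CE than in parental control cells of both lines, with log2 ratios of −0.39 in MDA-MB468 and −0.62 in BT549. Among the Acetalax libraries the values were −0.85 and −0.20. None reached the fold, and the direction was the same in the 4 contrasts by total counts. The last value turned sign with size factors, under which the median of all genes in that contrast moved from −0.16 to 0.06.

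CD46 (membrane cofactor protein, chr1:207925402-207968858, plus strand) lies 391 kb from CD55 and differed little. It had 381.1, 410.4, 365.5 and 311.8 CPM in MDA-MB468 parental control, parental Acetalax, CE control and CE Acetalax cells. In BT549 it had 155.0, 137.8, 170.8 and 156.9 CPM in the same order. The 4 log2 ratios of Acetalax to control ran from −0.23 in MDA-MB468 CE to 0.11 in MDA-MB468 parental cells, and the value of −0.12 in BT549 CE cells turned to 0.03 with TMM. The highest library of a line was 1.32 times the lowest in MDA-MB468 and 1.24 times in BT549, against 4.32 and 10.1 times for CD55.

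The make-up of the shields moved with CD55. Its share of their summed FPKM was 3.94% in control and 11.6% in Acetalax MDA-MB468 parental cells, and 30.4% and 46.3% in BT549 parental cells, where CD55 passed CD59 as the highest of them. In BT549 CE cells the share was 10.7% in control and 24.3% in Acetalax cells. In MDA-MB468 CE cells it was 7.30% and 7.67%. Summed CPM of the shields was 843 and 1186 in MDA-MB468 parental, 740 and 721 in MDA-MB468 CE, 425 and 607 in BT549 parental and 299 and 433 in BT549 CE cells, for control and Acetalax respectively. The sum was higher with Acetalax in every background but MDA-MB468 CE.

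**Figure D2:**
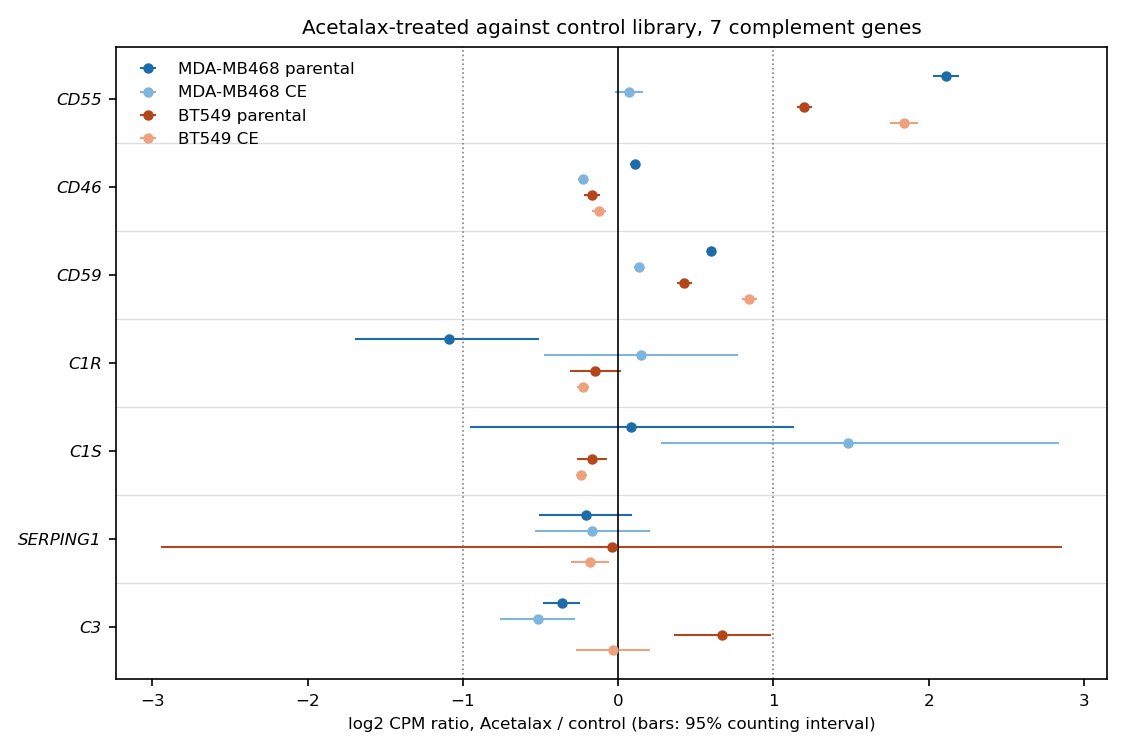
log2 ratio of CPM between the Acetalax and the control library for 7 genes in each background, with bars for the 95% counting interval and dotted lines at a log2 ratio of 1 in size. The CD55 points of 3 backgrounds lie between 1.20 and 2.11 and that of MDA-MB468 CE cells at 0.07, while CD46 stays within 0.23 of 0. Wide bars belong to genes with few counts, such as SERPING1 in BT549 parental cells with 3 counts in each library.

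The 250 bases before the CD55 start are shown because CD55 was past a log2 ratio of 1 in 3 of the 4 Acetalax pairs, and those before the listed starts of C1R because C1R was past the fold in BT549 CE cells. They are from RefSeq on GRCh38.p14, a different build from the hg19 coordinates of the count table. The RefSeq table held 6 of the 9 genes with 11 starts. Capitals mark a match to a searched motif, here the STAT element (GAS, TTCNNNGAA), and the counts do not tell which start was used.
CD55 chr1:207321428-207321677, plus strand: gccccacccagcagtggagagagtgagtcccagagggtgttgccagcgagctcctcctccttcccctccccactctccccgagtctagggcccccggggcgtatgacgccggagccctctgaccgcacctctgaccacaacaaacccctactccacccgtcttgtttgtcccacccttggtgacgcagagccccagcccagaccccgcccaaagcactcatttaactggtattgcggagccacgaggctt
C1R chr12:7092446-7092695, minus strand: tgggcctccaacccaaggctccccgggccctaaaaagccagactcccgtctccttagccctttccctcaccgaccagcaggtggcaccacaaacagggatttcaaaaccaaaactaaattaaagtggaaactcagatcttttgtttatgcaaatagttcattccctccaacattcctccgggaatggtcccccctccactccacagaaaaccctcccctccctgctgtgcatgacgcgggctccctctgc
C1R chr12:7091894-7092143, minus strand: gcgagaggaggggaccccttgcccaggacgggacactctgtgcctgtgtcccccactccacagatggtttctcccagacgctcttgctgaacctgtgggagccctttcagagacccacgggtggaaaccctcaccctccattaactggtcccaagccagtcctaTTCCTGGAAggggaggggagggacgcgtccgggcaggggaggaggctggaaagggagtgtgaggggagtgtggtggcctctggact
Both strands were searched for AP-1 (TGANTCA), CRE (TGACGTCA), NF-kB, GAS, ISRE (GAAANNGAA), the MAF element (TGACNNNGC), the E-box (CACGTG) and the TATA box (TATAAA). The CD55 window held none of them. One C1R window held a GAS match, 86 bases before its start, and 6.57% of 35116 promoters of this length held one. Of the other genes, CD59 had 2 AP-1 matches before 1 of its 4 starts, where 6.57% of all promoters held AP-1, and a GAS match before 2 others. CFB had matches to NF-kB, GAS, ISRE and the TATA box, held by 6.88%, 6.57%, 6.88% and 10.7% of all promoters. The letters alone say nothing of binding.

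C1R and C1S, the classical route proteases, were low in MDA-MB468 and well measured in BT549. C1R (chr12:7187513-7245203, minus strand) had 1.62, 0.762, 0.951 and 1.05 CPM in MDA-MB468 parental control, parental Acetalax, CE control and CE Acetalax cells, from 79, 37, 42 and 50 counts. C1S (chr12:7096351-7178336, plus strand) had 0.350, 0.371, 0.181 and 0.505 CPM in the same libraries, from 17, 18, 8 and 24 counts. Neither gene is firmly measured in MDA-MB468, and its ratios there have wide intervals.

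In BT549, C1R had 15.0 CPM in parental control, 13.6 in parental Acetalax, 219.1 in CE control and 187.6 in CE Acetalax cells. C1S had 41.5, 36.9, 306.2 and 259.9 CPM in the same order. Both CE libraries were far above both parental libraries. By total counts the Acetalax library was the slightly lower one in each background. In CE cells the log2 ratios of −0.22 (C1R) and −0.24 (C1S) became −0.07 and −0.08 with TMM. The median of all genes in that pair was −0.19 by total counts. In parental cells the C1R ratio was 0.903, with an interval of 0.806 to 1.01. The CE control library had 14.6 times the parental control level of C1R (13.5 to 15.8), at place 124 from the highest of 14030, and 7.38 times that of C1S (7.02 to 7.75), at place 233. Among the Acetalax libraries the ratios were 13.8 (12.7 to 15.1) and 7.04 (6.68 to 7.42), from other libraries of the same cells.

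In MDA-MB468 the CE control library was below the parental one, at a log2 ratio of −0.77 for C1R (−1.35 to −0.21) and −0.95 for C1S (−2.37 to 0.34). The Acetalax libraries gave 0.46 (−0.18 to 1.12) and 0.45 (−0.50 to 1.41), the other sign, on at most 50 counts. The C1S ratio of Acetalax to control in MDA-MB468 CE cells was 2.78 (1.21 to 7.17).

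The ratio of C1S to C1R per length was 1.56 in control and 1.54 in Acetalax BT549 parental cells, and 0.791 and 0.784 in the CE cells. Per length, C1S was thus the higher of the pair before chronic exposure and C1R after it. By CPM, without the exon lengths, C1S was the higher one in every BT549 library, at 306.2 against 219.1 CPM in CE control cells. The genes are 9176 bases apart on chromosome 12 and are annotated on opposite strands. C1R overlaps C1RL, and C1S overlaps EMG1 and LPCAT3, so reads in shared parts may be missing. For genes on opposite strands this depends on the strand setting, which was not stated.

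Of 32 other genes within 500 kb of the gap between C1S and C1R, 8 were past the fold upwards and 1 downwards in BT549 CE against parental control cells, with a median log2 ratio of 0.44. Of all genes, 8.13% were higher and 6.17% lower in that contrast. The 1 lower gene, PTPN6, was under 1 CPM in both libraries. In MDA-MB468 1 was past it in each direction and the median was 0.01, where 2.89% of all genes were higher and 2.32% lower. Both genes, LEPREL2 and RPL13P5, were under 1 CPM in the control libraries of that line. The nearest of the higher genes was C1RL, a protease-like relative of C1R, at 4.57 CPM in BT549 parental and 27.0 CPM in BT549 CE control cells. The median of all 14030 genes in that BT549 contrast was −0.06. Whether the copy number of the region differed was not tested.

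**Figure D3:**
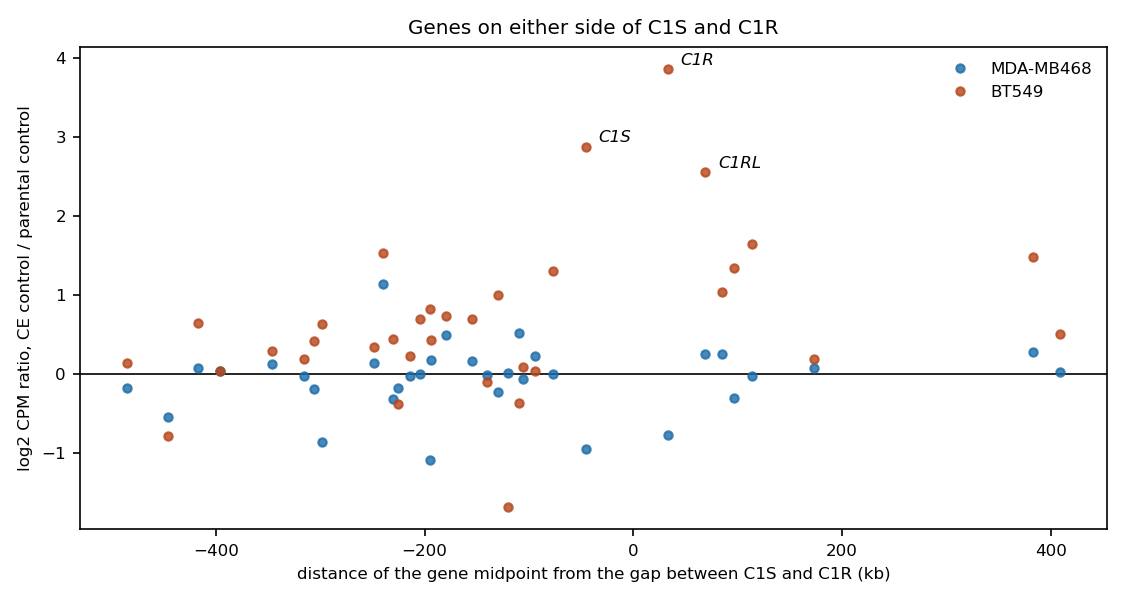
log2 CPM ratio of CE control to parental control for genes on either side of C1S and C1R, against the distance of the gene's midpoint from the gap between them in kb, with BT549 and MDA-MB468 in separate colours. C1R, C1S and C1RL are the highest points in BT549, at 3.87, 2.88 and 2.57, and 27 of the 32 other genes lie above 0 there. The median of all 14030 genes in BT549 was −0.06.

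SERPING1, the C1 inhibitor (chr11:57364860-57382326, plus strand), was nearly absent from BT549 parental cells and present in BT549 CE cells. It had 3 counts in parental control and 3 in parental Acetalax cells, 0.0710 and 0.0690 CPM, against 1234 counts (22.8 CPM) in CE control and 1014 counts (20.1 CPM) in CE Acetalax cells. In MDA-MB468 it had 4.22, 3.64, 2.88 and 2.57 CPM in parental control, parental Acetalax, CE control and CE Acetalax cells. The CE levels were the higher ones in BT549 and the lower ones in MDA-MB468. In MDA-MB468 the counting intervals of parental Acetalax (3.15 to 4.22 CPM) and CE control cells (2.42 to 3.42 CPM) overlapped. The share of all genes ordered in this way was not computed.

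The ratio of CE to parental control was 320 in BT549, with an interval of 109 to 1556 because of the 3 counts below it, and the log2 ratio of 8.32 was at place 16 from the highest of 14030. The Acetalax libraries gave 291 (99.2 to 1412). In MDA-MB468 the log2 ratios were −0.55 (−0.88 to −0.23) and −0.51 (−0.85 to −0.17). In BT549 only the CE libraries held 1 CPM or more of the gene. Among 13 genes within 500 kb, UBE2L6, a ubiquitin-like protein conjugating enzyme induced by interferon, was the 1 gene past the fold, at a log2 ratio of 4.61. Of all genes, 8.13% were higher and 6.17% lower between these BT549 control libraries.

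In all, 3 of the 7 genes were past the fold upwards (C1R, C1S, SERPING1) and 1 downwards (CD55) in BT549 CE against parental control cells, where 8.13% of all genes were higher and 6.17% lower. In MDA-MB468 C3 alone was past it downwards, where 2.89% were higher and 2.32% lower. These contrasts too were used in the choice of genes.

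**Figure D4:**
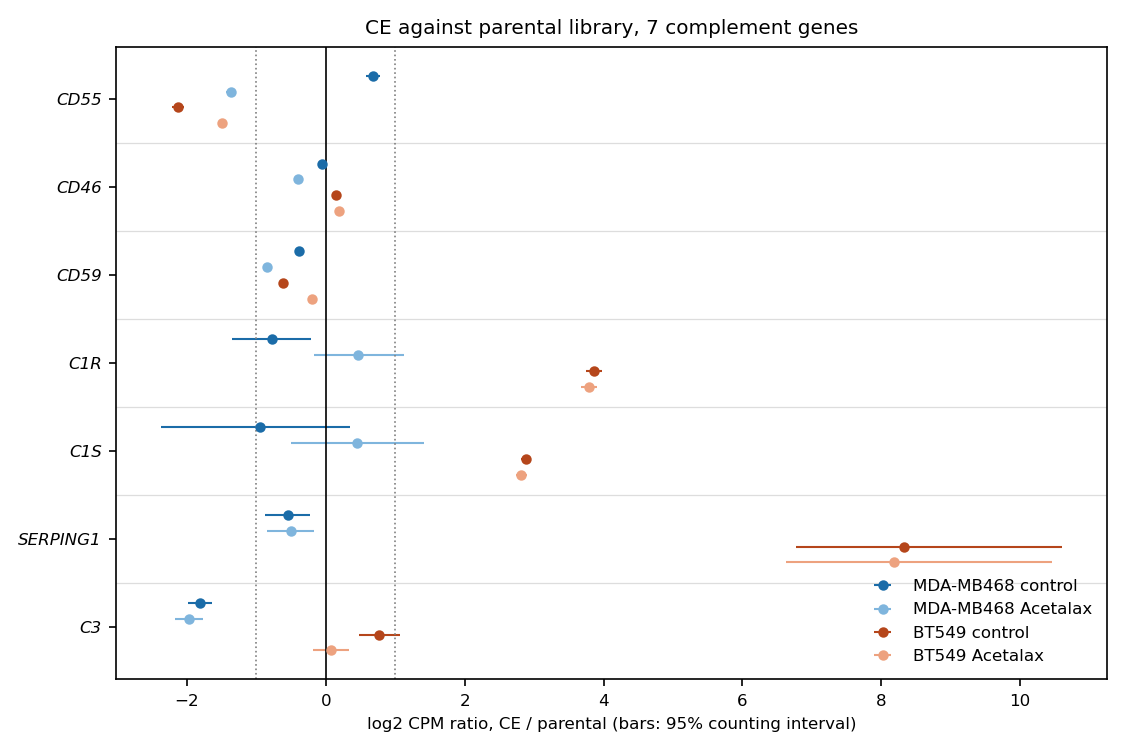
log2 ratio of CPM between CE and parental libraries for 7 genes, in control and in Acetalax libraries of each line, with bars for the 95% counting interval and dotted lines at a log2 ratio of 1 in size. C1R, C1S and SERPING1 lie at 2.82 to 8.32 in BT549, C3 lies near −1.81 and −1.97 in MDA-MB468, and CD55 is negative in all but the MDA-MB468 control contrast.

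**Figure D5:**
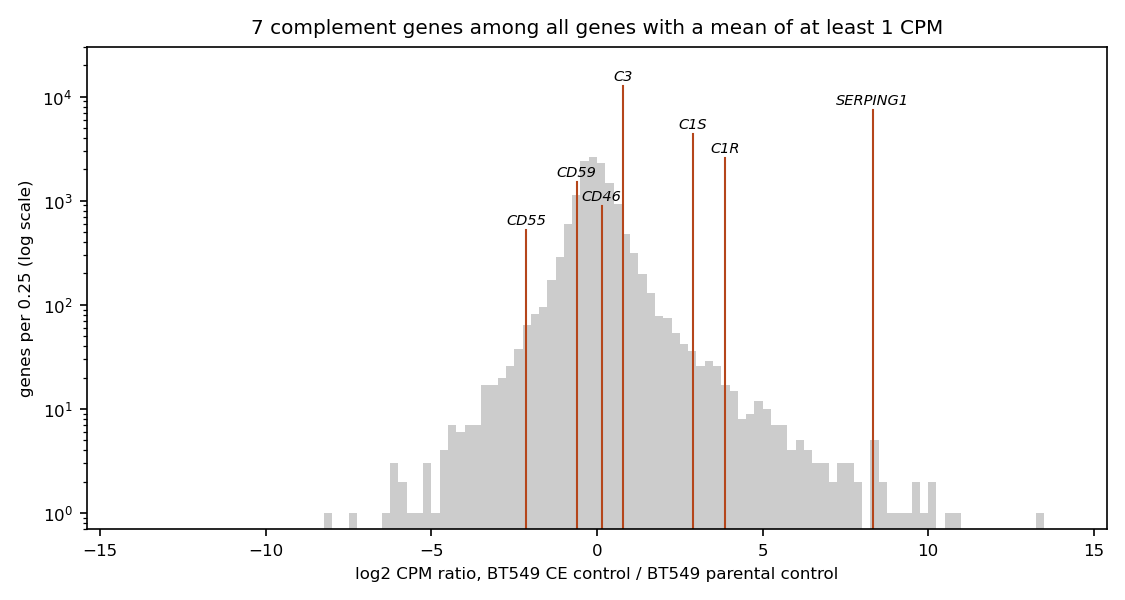
Number of genes per 0.25 of log2 CPM ratio (log scale) between BT549 CE control and BT549 parental control cells over 14030 genes, with vertical lines for the 7 complement genes whose heights only space the names. SERPING1 at 8.32 lies in the far upper tail, C1R at 3.87 and C1S at 2.88 lie in the upper tail and CD55 at −2.13 in the lower one, while CD46, CD59 and C3 lie in the centre.

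C3, on which all routes converge (chr19:6677715-6730573, minus strand), was highest in MDA-MB468 parental cells. It had 26.8 CPM in parental control, 20.8 in parental Acetalax, 7.61 in CE control and 5.32 in CE Acetalax MDA-MB468 cells. In BT549 it had 3.34, 5.31, 5.70 and 5.58 CPM in the same order. Both CE libraries of MDA-MB468 were below both parental libraries, and 3 of the BT549 libraries lay close together above the parental control.

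The MDA-MB468 parental control library had 3.52 times the CE control level of C3 (3.12 to 3.98), at place 127 from the lowest of 14030 genes, and the Acetalax libraries gave 3.91 (3.40 to 4.50). In BT549 the CE control library was 1.71 times the parental one (1.39 to 2.10), and the Acetalax libraries gave 1.05 (0.879 to 1.25). With Acetalax the log2 ratio to control was −0.36 in MDA-MB468 parental, −0.52 in MDA-MB468 CE, 0.67 in BT549 parental and −0.03 in BT549 CE cells, the last turning to 0.12 with TMM. CD14, a monocyte gene, stood in the same order as C3 in MDA-MB468, at 47.2, 20.4, 13.8 and 6.33 CPM in the same library order, whereas CSF1R of the same list had 7.73, 17.2, 9.97 and 10.7 CPM. The other 4 leukocyte genes had at most 5 counts in any MDA-MB468 library, the list summed to between 17.1 and 55.0 CPM in that line, and its part in the C3 values was not tested. C3 overlaps GPR108.

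CFI, the protease that cleaves C3b with CD46 as cofactor (chr4:110661852-110723335, minus strand), had 19, 15, 5 and 3 counts in the MDA-MB468 libraries and 0, 0, 0 and 1 in those of BT549. It did not reach 1 CPM anywhere, and a count of 0 allows up to 0.0710 CPM in BT549 parental control cells. CFB had 0 counts in every library under both of its identifiers. They span the same stretch, chr6:31895475-31919861, and reads that overlap more than 1 gene are not counted by STAR's gene counts, so CFB was not measured.

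Some of these genes stood apart in level between BT549 and MDA-MB468, about as often as genes in general, so nothing is read from their number. C1S averaged 0.352 CPM in MDA-MB468 and passed the filter on low levels only through BT549. Over the 4 libraries of each line, CD46 and CD59 were lower in BT549 without overlap, where 32.7% of 14030 genes were, and C1R and C1S were higher without overlap, where 23.5% were. The mean of MDA-MB468 was 2.37 times that of BT549 for CD46 and 2.71 times for CD59. CD55, C3 and SERPING1 overlapped between the lines.

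Fitting the 2 lines as replicates in edgeR gave CD55 a log2 fold change with Acetalax of 1.72 (SE 0.43) in parental and 1.07 (SE 0.44) in CE cells, and CD59 0.58 (SE 0.21) and 0.60 (SE 0.21). The CE values lie between unlike lines. With TMM, MDA-MB468 CE and BT549 CE cells had log2 ratios of 0.14 and 2.00 for CD55, and 0.21 and 1.00 for CD59. The SE pools parental and CE libraries, so it does not measure the spread between the CE lines alone. The CE to parental change was 1.78 (SE 1.47) for C1R, 1.69 (SE 1.04) for C1S and 3.13 (SE 3.13) for SERPING1, where the lines differed. Over all genes, the quasi-likelihood test of edgeR (Benjamini-Hochberg adjusted) called 0.0% of 19693 genes for Acetalax in parental cells, 0.0% in CE cells and 0.0% of 18377 for CE against parental, with 1710, 2311 and 610 genes at an unadjusted p under 0.05. DESeq2 called 75, 289 and 46.

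Of 52 other complement symbols, 51 were in the table and 11 averaged 1 CPM or more. Past the fold were 1 higher and 2 lower with Acetalax in MDA-MB468 parental, 1 and 1 in BT549 parental, 0 and 1 in MDA-MB468 CE and 1 and 3 in BT549 CE cells, and 1 and 1 (MDA-MB468) and 4 and 2 (BT549) in CE against parental cells. For the Acetalax pairs in this order, 5.01%, 2.09%, 2.47% and 4.41% of all genes were higher and 4.48%, 3.24%, 2.95% and 13.6% lower. For CE against parental cells the shares were 2.89% higher and 2.32% lower in MDA-MB468, and 8.13% and 6.17% in BT549. Their median log2 ratios were −0.05, −0.11, −0.17, −0.11, 0.26 and 0.66, beside −0.10, −0.09, −0.07, −0.19, 0.04 and −0.06 for all genes. The edgeR tests called 0 of 21 for Acetalax in either background and 0 of 16 for CE (smallest adjusted p 0.543, 0.322 and 0.947), with 4, 4 and 3 at an unadjusted p under 0.05. DESeq2 called 1, 1 and 0 of the list, beside 75 of 14103, 289 of 14103 and 46 of 15094 genes tested. Between the lines edgeR called 8 of 21 higher and 8 lower in BT549, where 27.3% and 29.5% of all genes were. That fit took the 4 libraries of each line as replicates. These share their source, so the calls describe 1 line against 1 other.

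C1RL was lower with Acetalax in every background, at 21.9 and 9.80 CPM in MDA-MB468 parental, 26.2 and 11.7 in MDA-MB468 CE, 4.57 and 1.95 in BT549 parental and 27.0 and 13.2 in BT549 CE cells for control and Acetalax. Its 4 log2 ratios by total counts lay between −1.22 and −1.03. C1R, which it overlaps, had −0.15 and −0.22 in the BT549 pairs. C5, the source of the terminal pathway, was lower as well, at log2 ratios of −1.12, −0.80, −0.64 and −1.16 in MDA-MB468 parental, MDA-MB468 CE, BT549 parental and BT549 CE cells, on a level of at most 8.92 CPM.

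Further listed genes are given in BT549 parental and CE control cells. CLU (clusterin, an inhibitor of the terminal complex) had 215 CPM in parental and 339 CPM in CE control cells of BT549, and CFD, the protease that cleaves factor B, 3.03 and 5.00 CPM. SUSD4, a membrane-bound inhibitor, was lower, at 14.2 and 1.73 CPM, and so was ITGB2, the beta chain of complement receptors, on 14 counts in parental and 2 in CE control cells, both under 1 CPM. C1QBP, a mitochondrial protein that binds C1q, was at 331 and 317 CPM. COLEC12, a scavenger collectin, and C5AR1, the C5a receptor, were picked after their values were seen. COLEC12 had 0.0237 CPM in parental and 7.26 CPM in CE control BT549 cells, and C5AR1 was higher with Acetalax in each background, at log2 ratios of 1.52, 0.98, 1.90 and 0.51 in MDA-MB468 parental, MDA-MB468 CE, BT549 parental and BT549 CE cells.

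Other genes moved with the BT549 CE state as well, and their part in the complement values was not tested. The fibroblast genes DCN and LUM had 0.0473 and 0 CPM in parental control and 1.42 and 2.12 CPM in CE control cells, and the 4-gene fibroblast sum was 947 and 1295 CPM, nearly all COL1A1, with PDGFRB near 0. Of the 5 epithelial genes, KRT8 and KRT18, keratins of simple epithelium, had 1.25 and 6.67 CPM in parental and 34.4 and 47.9 CPM in CE control cells, while EPCAM, CDH1 and KRT5 were each below 1 CPM in both libraries. The 4 mesenchymal genes summed to 3265 CPM in parental and 1624 CPM in CE control cells, and VIM had 1327 and 864 CPM, FN1 1629 and 593 CPM, CDH2 223 and 109.5 CPM and ZEB1 86.1 and 58.5 CPM. BT549 CE control cells correlated with parental control cells at r = 0.952 over genes and with the MDA-MB468 libraries at 0.688 to 0.698. Fewer cells of a type and less RNA per cell cannot be told apart in such bulk libraries.

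By the correlation of log2(CPM + 1) over the 8 libraries, which share 2 lines and so hold few independent points, the genes most like each were SCML1 for CD55 (r = 0.976), ABTB2 for CD46 (0.997), UBA2 for CD59 (0.992), MVK for C3 (0.978), PCBP3 for C1R (0.999), COL6A1 for C1S (1.00) and LY6E for SERPING1 (0.995), among 11134 genes. C1R and C1S had r = 0.978 with each other, and CD55 and CD59 had 0.0353. LY6E, an interferon-induced membrane protein, reached 2112 CPM.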

How the data were processed

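The 8 RNA-seq libraries, 1 per condition, were grouped from the sample labels. The authors aligned reads to hg19 with STAR and deposited raw counts per gene, whole numbers without normalization; the paper and the labels name different STAR releases, and the annotation and strand setting are not given in the sources used here. Repeated identifiers (1392, of which 3 had differing counts) were kept once, leaving 55679 of 58154 rows.

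CPM used each library's total count on genes. Log2 ratios compared 2 libraries, with counts under 3 set to 3 and exact conditional binomial 95% intervals. PCR duplicates were not separable, so intervals cover counting error only. The 14030 genes that averaged 1 CPM or more formed the background, and a log2 ratio of 1 in size was the threshold. FPKM used merged exon lengths from GENCODE on GRCh37. EdgeR 4.0.16 (quasi-likelihood, TMM, Benjamini-Hochberg, adjusted p threshold 0.05) and DESeq2 1.42.0 in R 4.3.3 took the lines as replicates. For BT549 against MDA-MB468 the 4 libraries of each line took that place, with condition as a block. The edgeR script was tested on simulated data. Promoters came from the RefSeq table.

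The members, the wider list and the tests were chosen with earlier results of these data known. Named genes were the 9 members, the wider-list genes of at least 1 CPM that were past the threshold in a pair or called by edgeR (at most the 8 with the highest mean), for each member of at least 5 CPM the gene most correlated with it, and TRPM4; 1 gene that this rule names is not reported here. The neighbours within 500 kb were added after the data were seen. Alternatives covered scaling, pseudocount, filter, fold and tool.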

Additional observations from a re-analysis of the deposited data

Results flagged for a closer look

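Several differences had opposite signs in the lines in every library pair, and these contrasts of lines were not tested. The share of all genes with such signs was not computed, so nothing is read from their number. SERPING1 had CE to parental log2 ratios of 8.32 (control) and 8.18 (Acetalax) in BT549 and −0.55 and −0.51 in MDA-MB468. C3 had 0.77 and 0.07 (interval −0.19 to 0.33) in BT549 and −1.81 and −1.97 in MDA-MB468. CD46 had 0.14 and 0.19 in BT549 and −0.06 and −0.40 in MDA-MB468, all small. For Acetalax against control, C1S had −0.17 (parental) and −0.24 (CE) in BT549 and 0.08 (−0.96 to 1.13) and 1.48 in MDA-MB468, on 18 against 17 and 24 against 8 counts. The signs of the values whose interval spans 0 are not fixed by the counts.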

How the results depend on the processing

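Of 209 values of single genes under other settings 149 stayed within the counting interval, 60 lay outside it and 0 reversed a call. Of 195 values compared by sign, 9 had the other sign. CD55 in MDA-MB468 CE against parental cells went from 0.68 in control to −1.36 in Acetalax libraries, past the fold downwards. C1R and C1S turned sign in the same change of libraries. The number of complement genes past the fold fell from 2 to 1 in the MDA-MB468 parental Acetalax pair, and from 1 to 0 in that of MDA-MB468 CE, with a pseudocount of 1 CPM or with log2(FPKM + 1), since C1R and C1S have few counts. It went from 1 to 2 in the BT549 CE pair with TMM or size factors (CD59) and at a fold of 1.5, and to 2 in the BT549 parental pair at 1.5. For MDA-MB468 CE against parental it was 1, with 0 by log2(FPKM + 1), 2 in the Acetalax libraries and 4 at a fold of 1.5. Over all genes with at least 1 count in both libraries the share past the fold was 14.8% (MDA-MB468 parental), 10.7% (BT549 parental) and 11.7% (MDA-MB468 CE) with Acetalax and 10.7% for MDA-MB468 CE against parental, which was 3.46% from a mean of 5 CPM.

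EdgeR called 0 genes for Acetalax in parental cells, 643 without the filter on low counts, and DESeq2 75. In CE cells it called 0, 1080 and 289, and a single Acetalax term over the 4 backgrounds gave 984. For CE against parental the counts were 0, 45 and 46. In the wider list, DESeq2 called 1 gene with Acetalax in parental and 1 in CE cells, and edgeR without the filter 2 and 1, and 2 for CE against parental. The cause of these changes was not tested. The edgeR fits pair the libraries, since they compare them within a background, line or condition. Replicate cultures could not be paired across groups, because no condition has a second library. With 1 library per condition, there were no replicates to leave out. Levels under 1 CPM, as for C1S in MDA-MB468 and CFI, are limited by counting.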
